A study of Homo sapiens with 16 samples.

Results

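The interferon-stimulated genes described here are 37 genes that cells switch on in response to interferon, together with the RNA sensors and transcription factors that serve the same response. They were listed by gene symbol when earlier results of these data were known, although no measured value enters the rule, and all 37 were found among the 63677 genes of the count table. The RNA came from Mia-PaCa-2 and PANC-1, a pair of long-established human lines grown from ductal adenocarcinomas of the pancreas. Each line was grown in serum-containing medium for 24 h under 4 conditions: no drug (control), 40 nM gemcitabine, 50 µM genistein, or both drugs at those doses. Gemcitabine is a nucleoside analogue that stops DNA replication, and genistein is a plant isoflavone that binds estrogen receptors and was dissolved in DMSO. Every condition has 2 libraries, labelled I and II, which makes 16 libraries of poly-A RNA. The study describes them as biological replicates, but each line stands for 1 culture history and 1 dose of each drug. The p-values therefore weigh differences only against the spread between these libraries. The labels do not say whether the control cells received the DMSO that dissolved genistein.

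Interferons are secreted proteins that act through cell surface receptors. Type I and type III interferons activate the kinases JAK1 and TYK2, which phosphorylate STAT2, a subunit of a complex with IRF9 that binds the interferon-stimulated response element in the promoters of antiviral genes. The products include the OAS enzymes, which sense double-stranded RNA, the IFIT proteins, which bind foreign RNA, and ISG15, a ubiquitin-like protein that is attached to other proteins. Many of the same genes are also switched on without secreted interferon, by IRF1 or when the sensors RIG-I (listed here as DDX58) and MDA5 (IFIH1) meet RNA in the cytoplasm.

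Promoter sequence was available for 31 of the 37 genes in the RefSeq promoter table (GRCh38.p14, 250 bases before to 50 after the transcription start); IFIT2, MX2, OAS2, OASL, IRF7 and IFITM2 had no entry there. A pair of GAAA units spaced by 2 bases of any kind, the core of the interferon-stimulated response element, was searched for on either strand. It was found in 19 of the 31 (61.3%) and in 1255 of the 35116 promoters searched (3.57%). A gamma-activated site, TTC and GAA spaced by 3 bases of any kind, was found in 8 of the 31 (25.8%) and in 7.66% of the promoters searched. Both are matches of letters and not measured binding. The shares of the 31 count genes and the other shares count promoters, so they are not strictly like measures. The 250 bases before the start are shown for OAS3, IFI6 and ISG15, whose RNA was higher in Mia-PaCa-2 cells after gemcitabine, for IFIT1, whose RNA was lower, and for IFI35, which was higher and holds no such core. Capitals mark the core on the strand where it was found, which for IFIT1 is read as TTTC. The windows are chr12:112938224-112938473 for OAS3, chr1:27672193-27672442 for IFI6 on the minus strand, chr1:1013247-1013496 for ISG15, chr10:89392373-89392622 for IFIT1 and chr17:43006534-43006783 for IFI35, the last 3 and OAS3 on the plus strand.
OAS3: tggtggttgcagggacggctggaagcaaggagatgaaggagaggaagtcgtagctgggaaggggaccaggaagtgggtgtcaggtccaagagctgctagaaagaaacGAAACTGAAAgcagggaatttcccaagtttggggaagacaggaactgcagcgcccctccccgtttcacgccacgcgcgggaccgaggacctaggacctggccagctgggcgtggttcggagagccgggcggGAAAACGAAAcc
IFI6: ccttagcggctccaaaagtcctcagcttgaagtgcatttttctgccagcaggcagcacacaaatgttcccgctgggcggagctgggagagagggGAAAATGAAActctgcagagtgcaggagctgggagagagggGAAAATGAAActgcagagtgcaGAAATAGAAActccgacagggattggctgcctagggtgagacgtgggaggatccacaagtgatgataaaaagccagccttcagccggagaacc
ISG15: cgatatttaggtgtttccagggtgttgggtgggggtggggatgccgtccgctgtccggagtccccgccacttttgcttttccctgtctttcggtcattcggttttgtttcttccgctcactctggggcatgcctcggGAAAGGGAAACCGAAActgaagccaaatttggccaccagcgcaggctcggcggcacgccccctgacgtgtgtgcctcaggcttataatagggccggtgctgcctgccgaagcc
IFIT1: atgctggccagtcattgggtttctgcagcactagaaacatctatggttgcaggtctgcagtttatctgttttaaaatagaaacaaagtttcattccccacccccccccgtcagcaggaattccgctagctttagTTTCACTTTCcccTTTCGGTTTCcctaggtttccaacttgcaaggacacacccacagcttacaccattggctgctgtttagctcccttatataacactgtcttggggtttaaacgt
IFI35: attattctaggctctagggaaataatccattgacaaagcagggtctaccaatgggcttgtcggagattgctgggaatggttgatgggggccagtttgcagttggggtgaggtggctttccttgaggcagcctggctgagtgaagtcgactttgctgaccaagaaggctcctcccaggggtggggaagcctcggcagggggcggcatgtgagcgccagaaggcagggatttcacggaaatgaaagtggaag
The cores begin 143 and 12 bases before the start in OAS3 and from 156 to 93 bases before it in IFI6, which has 3; the 2 cores of ISG15 overlap and those of IFIT1 lie next to each other. The core was present in 4 of the 10 genes with a promoter that were higher after gemcitabine in Mia-PaCa-2, in 2 of 3 that were lower and in 11 of 16 that passed neither way. Pairs at any other spacing were not counted. Genes counted as without the core include some with a closer GAAA pair, namely OAS1 and IFI35 (higher), DDX58 (lower) and RSAD2 (neither way). The counts therefore do not show which genes lack a response element.

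The libraries held 12943482 to 31991860 counted reads. A few markers bear on the identity of the cells. The keratins KRT8 and KRT18 were listed at 369 to 1076 FPKM in all 16 libraries, and the leukocyte marker PTPRC had at most 1 count in any library. EPCAM, an epithelial surface protein, had 0 counts in every Mia-PaCa-2 library and was listed at 7.71 to 12.8 FPKM in PANC-1, and the adhesion protein CDH1 had at most 2 counts in a Mia-PaCa-2 library, so these epithelial markers were practically absent from that line. CD14, a monocyte protein, was the highest leukocyte marker, at 1.01 to 4.98 FPKM in Mia-PaCa-2 and 0.216 to 1.48 FPKM in PANC-1. Replicate libraries differed by more than counting noise in every group, by a chi-square per degree of freedom of 2.70 (PANC-1 genistein) to 32.0 (PANC-1 control). The libraries also differed in how counts followed the GC content of genes. Per 10 percentage points of GC content, log2 counts changed by -0.23 and -0.14 in the Mia-PaCa-2 controls and by 0.14 and 0.05 after gemcitabine, and by 0.29 and -0.07 in the PANC-1 controls. In Mia-PaCa-2 all 4 libraries with gemcitabine had a higher slope (0.05 to 0.29) than both controls, while genistein II, at -0.16, lay between the controls. In PANC-1 the slopes of the groups overlapped. Each comparison was repeated after removal of this trend, and calls that were lost are given beside the comparison.

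In untreated cells the interferon-stimulated genes ranged from 0 reads to 682 FPKM, the level of IFITM3 in 1 PANC-1 control. FPKM, reads scaled to transcript length and to the reads of the library, is the scale used here for levels of different genes. The mean of the controls was above 1 FPKM for 32 genes in Mia-PaCa-2 and 29 in PANC-1, and above 10 FPKM for 19 and 14. IFITM2 and IFITM3, membrane proteins that block virus entry, stood at the top in both lines, with 249 and 234 FPKM for IFITM2 in Mia-PaCa-2 and 469 and 390 FPKM in PANC-1. IFITM1, IFITM2 and IFITM3 share 15.7 to 29.8% of their 50-base stretches with other genes, mostly each other, and reads with several alignments were removed before counting, so their levels are uncertain. IFI44L lay at the bottom, with 1 read in 1 PANC-1 library and 0 reads in the other 15. IRF7, the transcription factor that amplifies interferon production, was absent from the counts of all 8 Mia-PaCa-2 libraries and was listed at 16.4 and 13.6 FPKM in the PANC-1 controls. With a floor of 3 counts per library in Mia-PaCa-2, IRF7 was at least 91.9-fold higher in untreated PANC-1.

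**Figure D1:**
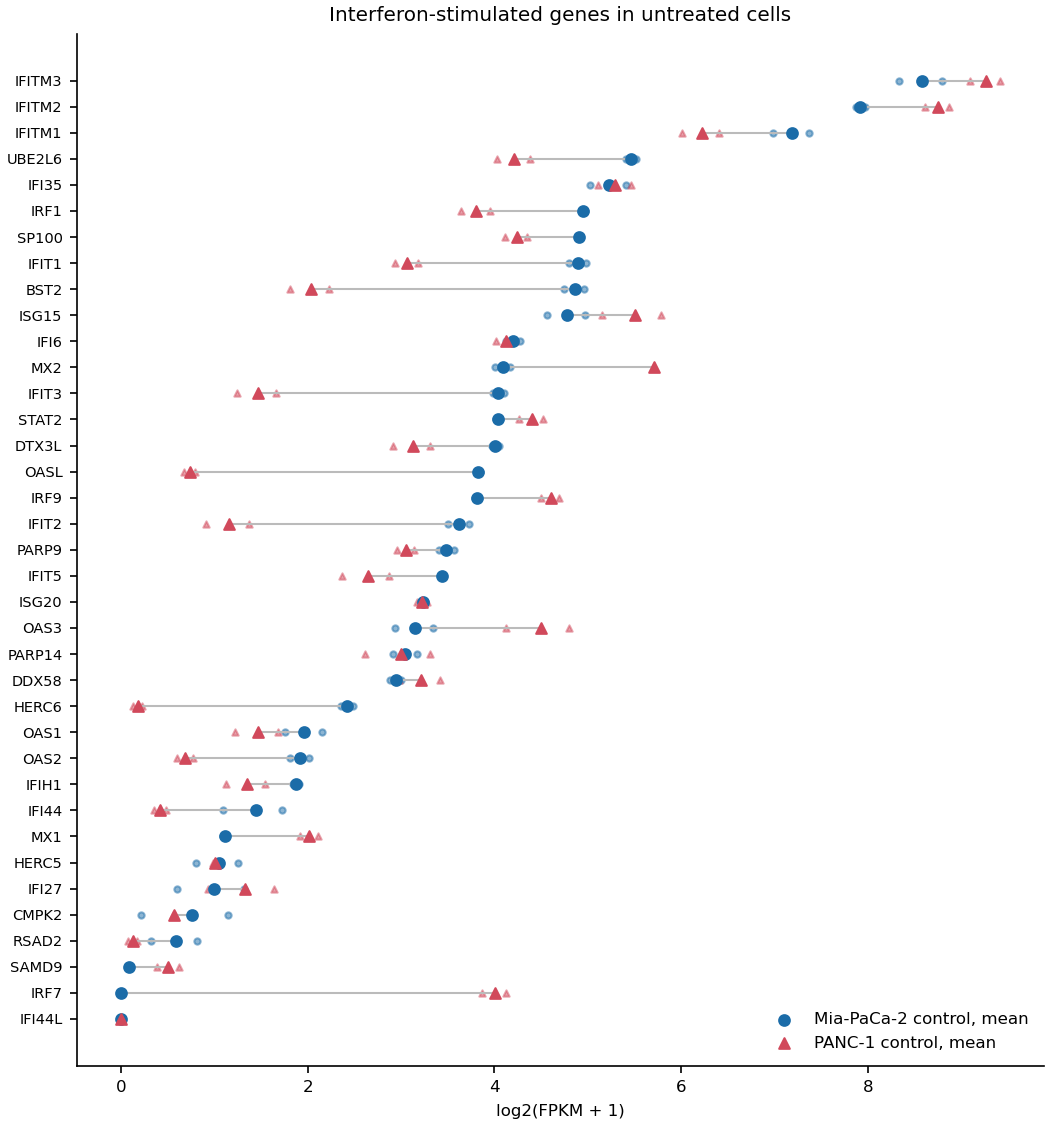
Level of each of the 37 interferon-stimulated genes in untreated cells, as log2(FPKM + 1) on the horizontal axis; small points are the 2 libraries of each line, large points their means, and grey lines join the lines' means. IFITM3 and IFITM2 are at the top, IRF7 is at 0 in Mia-PaCa-2 only, and HERC6, OASL, IFIT2, IFIT3 and BST2 lie far to the left in PANC-1.

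The untreated lines differed in 23 of the 36 interferon-stimulated genes that had enough reads to test, and most of these were lower in PANC-1. A gene was called changed at a Benjamini-Hochberg adjusted p of at most 0.05 by limma-voom, a log2 fold change of at least 0.4 in size and a mean above 1 FPKM. By this rule 16 genes were lower in PANC-1, beside 24.3% of all genes tested, and 7 were higher, beside 27.9%. The median log2 difference, PANC-1 minus Mia-PaCa-2, was -0.25 over the 36 genes and 0.06 over all genes, with or without IRF7 set at its bound. HERC6, a relative of the enzyme that attaches ISG15, was the lowest, with 277 and 231 counts in the Mia-PaCa-2 controls and 7 and 11 in PANC-1 (log2 difference -5.56 ± 0.25 SE, adjusted p = 8.37e-10). OASL, an OAS relative without the enzyme activity, had 515 and 407 counts in the Mia-PaCa-2 controls and 22 and 44 in PANC-1, a log2 difference of -4.62 ± 0.22.

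Genes of the IFIT family were lower in PANC-1 in all 4 cases. IFIT1, IFIT2, IFIT3 and IFIT5 lie side by side on chromosome 10 (GRCh37, within 91043451 to 91181362 on the plus strand). IFIT2 was listed at 12.3 and 10.4 FPKM in Mia-PaCa-2 and 0.884 and 1.58 FPKM in PANC-1 (log2 difference -3.24 ± 0.19). IFIT3 followed with -3.17 ± 0.17, and IFIT1 was listed at 30.7 and 26.9 FPKM in Mia-PaCa-2 and 6.68 and 8.05 FPKM in PANC-1. IFIT5 differed by -0.94 ± 0.20. BST2, the tetherin protein that holds budding viruses on the cell surface, was listed at 30.3 and 25.8 FPKM in Mia-PaCa-2 and 3.69 and 2.52 FPKM in PANC-1 (log2 difference -3.12 ± 0.20). The other genes lower in PANC-1 were IFI44, OAS2, IFITM1, IRF1, OAS1, UBE2L6, DTX3L, IFIH1 and PARP9, with log2 differences from -2.15 to -0.42.

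In the opposite direction, OAS3 and the dynamin-like antiviral proteins MX1 and MX2 were higher in PANC-1. MX2 was listed at 51.3 and 51.5 FPKM in PANC-1 and 17.0 and 15.1 FPKM in Mia-PaCa-2 (log2 difference 1.48 ± 0.09). OAS3 was listed at 26.8 and 16.4 FPKM in PANC-1 and 6.65 and 9.15 FPKM in Mia-PaCa-2 (1.41 ± 0.12), so that OAS3 and its neighbours OAS1 and OAS2 on chromosome 12 differed between the lines in opposite directions. MX1 differed by 1.04 ± 0.27. IFITM2 (0.77) and IFITM3 (0.80) also passed, but at 0.27 and 0.31 neither passed the fold threshold once the GC trend was removed. IFI27 had 46 counts in the 2 PANC-1 controls and 6 in the 2 Mia-PaCa-2 controls, a ratio of 4.31 per read sequenced (95% exact interval 1.84 to 12.4, counting error only). RSAD2 and SAMD9 differed at adjusted p values of 0.0015 and 0.00012, but were below 1 FPKM in both lines and were not called.

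Gemcitabine changed 14 of the 34 testable interferon-stimulated genes in Mia-PaCa-2, 10 of them upward and 4 downward. Of all genes tested in this line, 15.0% were called higher and 14.6% lower. The median log2 fold change was 0.30 over the interferon-stimulated genes and -0.01 over all genes, and 23 of the 34 values were positive. Among the genes called, OAS3, IFI6, IFI35 and OAS1 rose most, and IFIT2, IFIT5, IFIT1 and the sensor DDX58 fell. The sparsely counted IFI27 had a larger value, 1.76 ± 0.70, and did not pass. Of 5 epithelial, ductal and mesenchymal markers tested, KRT19 (-1.40 ± 0.13), SOX9 (-0.91 ± 0.09) and VIM (-0.66 ± 0.06) also fell, and their part in the result was not tested.

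OAS3, the OAS enzyme that responds to long double-stranded RNA, was listed at 6.65 and 9.15 FPKM in the controls and 31.2 and 16.5 FPKM after gemcitabine, a log2 fold change of 1.43 ± 0.10 (limma-voom adjusted p = 2.69e-06). The counts behind these values were 673 and 555 in controls and 2058 and 1735 after gemcitabine, so the groups did not overlap. OAS1, which makes the same 2′-5′-linked oligoadenylates, rose from 3.44 and 2.37 FPKM to 6.07 and 4.73 FPKM (log2 fold change 0.99 ± 0.20). OAS2 (0.35 ± 0.18) did not pass, and OASL stood at -0.39 ± 0.12, just inside the fold threshold.

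IFI6, a mitochondrial protein that counters cell death, was listed at 16.5 and 18.4 FPKM in controls and 46.5 and 46.7 FPKM after gemcitabine (log2 fold change 1.30 ± 0.15, limma-voom adjusted p = 5.04e-05). A total of 16.4% of its 50-base stretches are shared with LINC02574, which overlaps it. IFI35, a leucine zipper protein, rose from 41.5 and 31.7 FPKM to 87.2 and 84.7 FPKM (1.04 ± 0.13). For both genes each gemcitabine library lay well above both controls.

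Among the transcription factors of the response, STAT2 and IRF1 rose. STAT2, the subunit that gives the interferon-activated complex its transcription activity, went from 15.7 and 15.2 FPKM to 30.0 and 28.5 FPKM (log2 fold change 0.79 ± 0.09). IRF1, which can bind the response element alone, went from 30.4 and 29.5 FPKM to 49.5 and 51.2 FPKM (0.58 ± 0.10). IRF7 remained at 0 counts. IRF9 gave an unclear answer, because its 2 deposited measures disagreed: over the 16 libraries it held 12 to 51 counts but 12.9 to 24.9 FPKM, whereas STAT2, at 15.2 to 35.6 FPKM, held 601 to 1610 counts. A total of 23.9% of the IRF9 exons overlap another annotated gene, ENSG00000259529, on the same strand. Tested on counts, IRF9 did not pass (0.26 ± 0.33, limma-voom adjusted p = 0.56). Tested as log2(FPKM + 1) with limma-trend it did (0.68 ± 0.15, adjusted p = 0.018). IRF9 was likewise called on FPKM and not on counts with both drugs in Mia-PaCa-2 (0.61 ± 0.15). The same held for untreated PANC-1 against Mia-PaCa-2 (0.78 ± 0.14) and for the gemcitabine response, PANC-1 minus Mia-PaCa-2 (-0.91 ± 0.19).

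Of the 4 genes ISG15, UBE2L6, HERC6 and HERC5, 3 rose and HERC5 did not pass. ISG15 itself rose from 22.7 and 30.4 FPKM to 55.7 and 48.6 FPKM (log2 fold change 0.89 ± 0.20). UBE2L6, the enzyme that carries ISG15, rose from 44.9 and 41.5 FPKM to 61.8 and 63.6 FPKM (0.46 ± 0.11), and HERC6 from 4.11 and 4.60 FPKM to 8.51 and 7.13 FPKM (0.54 ± 0.13). HERC5, the human ligase for ISG15, had 49 to 96 counts in these libraries (0.42 ± 0.28). After removal of the GC trend ISG15 was at 0.41 and UBE2L6, at 0.21, was not called. ISG20, an exonuclease that degrades RNA, rose by 0.77 ± 0.20.

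Of the 4 IFIT genes 3 fell. IFIT2 went from 12.3 and 10.4 FPKM to 7.17 and 6.53 FPKM (log2 fold change -0.85 ± 0.13, limma-voom adjusted p = 0.00042). IFIT5 fell from 9.81 and 9.91 FPKM to 6.93 and 6.03 FPKM (-0.75 ± 0.13), and IFIT1 from 30.7 and 26.9 FPKM to 21.8 and 23.9 FPKM (-0.46 ± 0.12). In all 3 the gemcitabine libraries lay below both controls, and IFIT3 (-0.32 ± 0.11) did not reach the fold threshold. DDX58 fell by 0.50 ± 0.15 on the log2 scale, but shares 42.5% of its 50-base stretches with the overlapping gene ENSG00000288684. The related sensor IFIH1 was at -0.19 ± 0.15, and the membrane proteins IFITM1, IFITM2, IFITM3 and BST2 lay between -0.19 and 0.03, none of them called.

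**Figure D2:**
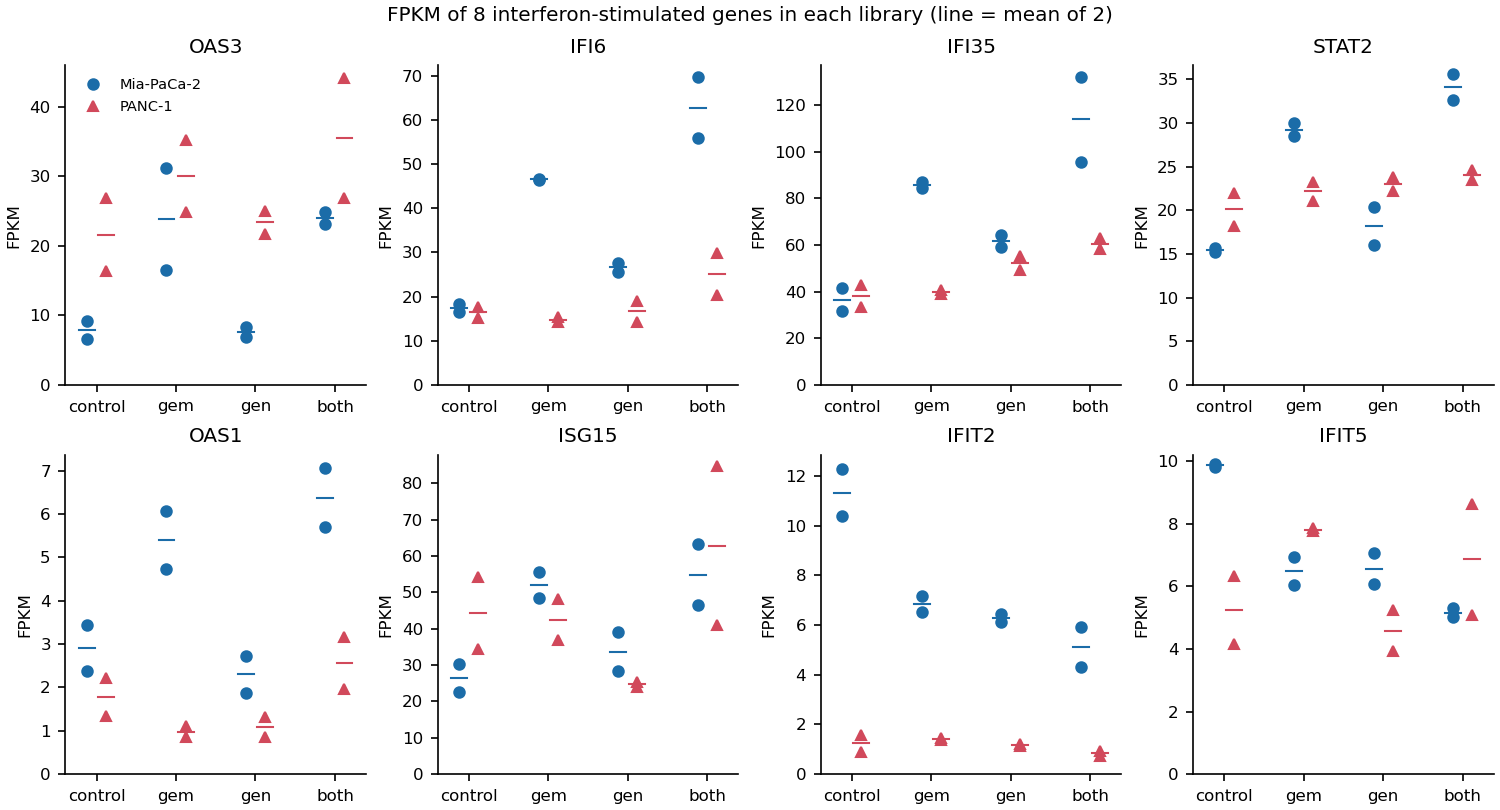
FPKM of 8 interferon-stimulated genes in all 16 libraries by treatment (gem, gemcitabine; gen, genistein); circles are Mia-PaCa-2, triangles PANC-1 and short lines the mean of 2 libraries. In Mia-PaCa-2 the 4 libraries with gemcitabine lie above the controls for OAS3, IFI6, IFI35, STAT2, OAS1 and ISG15 and below them for IFIT2 and IFIT5.

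The Mia-PaCa-2 gemcitabine result was partly sensitive to GC content. The genes called lower have 38.8 to 42.7% GC in their exons and those called higher 42.6% (OAS1) to 63.4% (ISG15), with OAS3 at 48.6% and IFI6 at 56.3%. After each library's GC trend was removed, 14 genes were again called, 10 higher and 4 lower. OAS3 (1.33), OAS1 (1.13), IFI6 (1.06), IFI35 (0.78) and STAT2 (0.63) stayed above 0.4, and IFIT2 (-0.72) and IFIT5 (-0.45) remained lower. UBE2L6, DDX58 (-0.29) and IFIT1 (-0.31) were lost, and PARP14 (0.55), OASL (-0.53) and IFITM1 (-0.48) were gained. The correlation of log2 fold change with GC content over the 34 genes, given as a description since the genes share libraries, was 0.40 before and 0.10 after removal. Without the control I library, 9 genes were called. The split became 11 higher and 2 lower with counts scaled by library size alone.

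**Figure D3:**
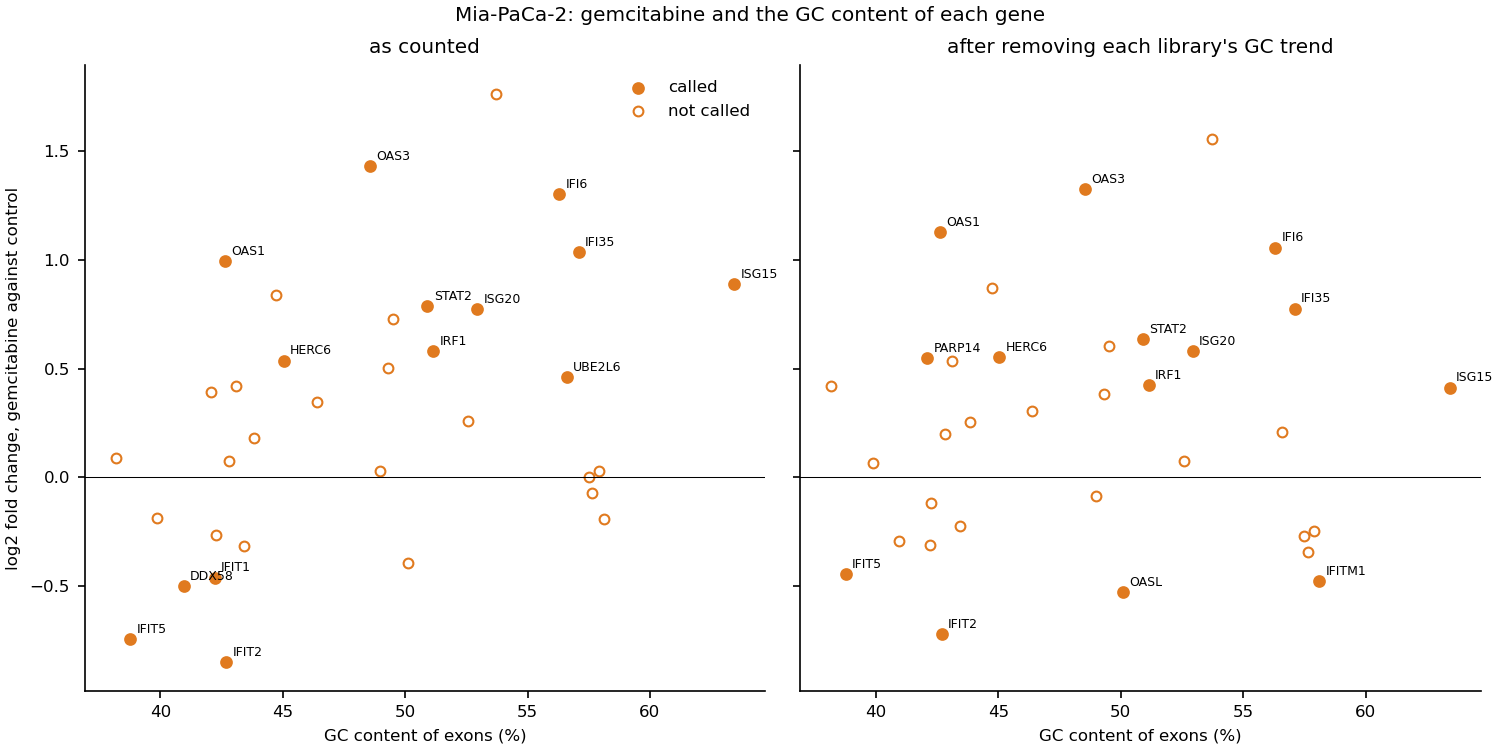
Log2 fold change of each tested interferon-stimulated gene after gemcitabine in Mia-PaCa-2 against the GC content of its exons in percent, as counted (left) and after each library's GC trend was removed (right); filled points were called. OAS3, OAS1, IFI6, IFI35 and STAT2 stay at 0.63 or higher on the right, while ISG15 drops to 0.41.

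Genistein alone changed fewer of these genes in Mia-PaCa-2, 3 upward and 5 downward of 34. Of all genes, 4.18% were called higher and 4.13% lower. IFI35 rose from 41.5 and 31.7 FPKM to 59.0 and 64.5 FPKM (log2 fold change 0.84 ± 0.13, limma-voom adjusted p = 0.0025). IFI6 rose from 16.5 and 18.4 FPKM to 27.7 and 25.6 FPKM (0.65 ± 0.16), and IRF1 by 0.44 ± 0.10. OAS3, in contrast, was listed at 6.91 and 8.38 FPKM, within the range of the controls (-0.01 ± 0.11). Among the genes that fell, IFIT2 went from 12.3 and 10.4 FPKM to 6.13 and 6.43 FPKM (-0.83 ± 0.14), and the sensor IFIH1 from 2.76 and 2.59 FPKM to 1.43 and 1.60 FPKM (-0.71 ± 0.16). IFIT5 (-0.50), the nuclear body protein SP100 (-0.47) and IFIT3 (-0.44) made up the rest. The monocyte marker CD14 also fell (-1.52 ± 0.28), while the other 6 leukocyte markers examined had at most 2 counts in any library; its part in these changes was not tested.

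The genistein count was unstable. After removal of the GC trend 5 genes were called, IFI35 (0.77) and IFI6 (0.57) higher and IFIT2 (-0.74), IFIH1 (-0.53) and BST2 (-0.45) lower. Without the control I library 1 gene was called, without control II 2, without genistein I 2 and without genistein II 4. Scaled by library size alone, 2 were higher and 6 lower. IFI35 was called in all 8 of the fits that left out a library and IFIT2 in 7 of them.

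Together the drugs changed 15 of the 34 genes in Mia-PaCa-2, 11 higher and 4 lower, beside 20.3% and 20.2% of all genes. IFI6 reached 55.9 and 69.6 FPKM, against 16.5 and 18.4 FPKM in controls (log2 fold change 1.76 ± 0.15, limma-voom adjusted p = 1.61e-06). IFI35 reached 95.7 and 132 FPKM, against 41.5 and 31.7 FPKM (1.53 ± 0.12). OAS3, at 24.9 and 23.1 FPKM, changed by 1.55 ± 0.10, and STAT2, at 35.6 and 32.6 FPKM, by 1.07 ± 0.09. OAS1 (1.20), ISG20 (1.04), ISG15 (0.98), HERC6 (0.68), IRF1 (0.66) and UBE2L6 (0.56) were also higher. At the other end IFIT2 fell to 5.90 and 4.32 FPKM (-1.26 ± 0.14) and IFIT5 to 5.29 and 5.02 FPKM (-1.16 ± 0.14), with DDX58 (-0.62) and IFIT3 (-0.41). With the GC trend removed, 12 of the 15 were again called, UBE2L6 (0.23), DDX58 (-0.35) and IFIT3 (-0.31) were lost, and PARP14 and OASL were gained. KRT19 (-1.70 ± 0.13), SOX9 (-1.52 ± 0.10) and VIM (-0.71 ± 0.06) were lower here too.

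IFI27, a small mitochondrial protein used as a marker of interferon exposure, also passed with the drugs combined, but on few reads. It had 4 and 2 counts in the Mia-PaCa-2 controls, 26 and 6 after gemcitabine, 4 and 9 after genistein and 26 and 26 after both. The ratio of both drugs to control, per read sequenced, was 8.82 with a 95% exact interval of 3.79 to 25.1 for counting error only. The gemcitabine libraries spread between the others for this gene.

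Beside gemcitabine alone, the combination gave higher levels of 2 genes and lower levels of none. Of all genes, 4.05% were called higher and 1.83% lower in this comparison. IFI35 was listed at 87.2 and 84.7 FPKM after gemcitabine and 95.7 and 132 FPKM after both (log2 difference 0.50 ± 0.11, limma-voom adjusted p = 0.020), and IFI6 at 46.5 and 46.7 FPKM and at 55.9 and 69.6 FPKM (0.46 ± 0.13, adjusted p = 0.049). Neither difference was stable. No gene was called without both-drug library II, without gemcitabine I or without gemcitabine II, 1 was called without control I or without control II, and 5 were called without both-drug library I. With the replicate number as a block or after removal of the GC trend, 1 was called.

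Beside genistein alone, the combination changed 13 genes in Mia-PaCa-2, 11 higher and 2 lower, with 16.6% and 14.9% of all genes called. OAS1 rose most apart from the sparsely counted IFI27, from 1.88 and 2.73 FPKM to 7.06 and 5.69 FPKM (log2 difference 1.80 ± 0.22), followed by OAS3 (1.56 ± 0.10) and ISG20 (1.19 ± 0.20). IFI6, HERC6, STAT2, IFI35, PARP14, ISG15 and IFIH1 were higher by 0.61 to 1.11, and IFI27 by a ratio of 4.75 per read sequenced (95% exact interval 2.55 to 9.51). IFIT5 (-0.66 ± 0.14) and IFIT2 (-0.43 ± 0.15) were lower. IFIH1 was listed at 1.43 and 1.60 FPKM under genistein and at 2.78 and 2.27 FPKM under both drugs, close to the 2.76 and 2.59 FPKM of the controls. ISG15 (0.12) and IFIT2 (-0.37) no longer passed after removal of the GC trend. CD14 was higher in the same comparison (1.36 ± 0.29) and 4 of 5 epithelial, ductal and mesenchymal markers were lower, and their part was not tested.

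A test of the gemcitabine by genistein interaction asks whether the effect of both drugs differs from the sum of their log2 effects. In Mia-PaCa-2 it called 0 of the 34 interferon-stimulated genes by limma-voom, edgeR or DESeq2, and 0.0249% of all genes. At an unadjusted p under 0.05 there were 5 genes by limma-voom, 6 by edgeR and 4 by DESeq2. HERC5 had the deviation largest in size, -0.84. Among genes with an SE under 0.4, the largest were OAS1 (0.80 ± 0.30) and IFIH1 (0.80 ± 0.22). The limma-voom adjusted p values of OAS1 and IFIH1 were 0.49 and 0.37. OAS3 (0.13 ± 0.14) and STAT2 (0.02 ± 0.13) were nearer to 0.

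**Figure D4:**
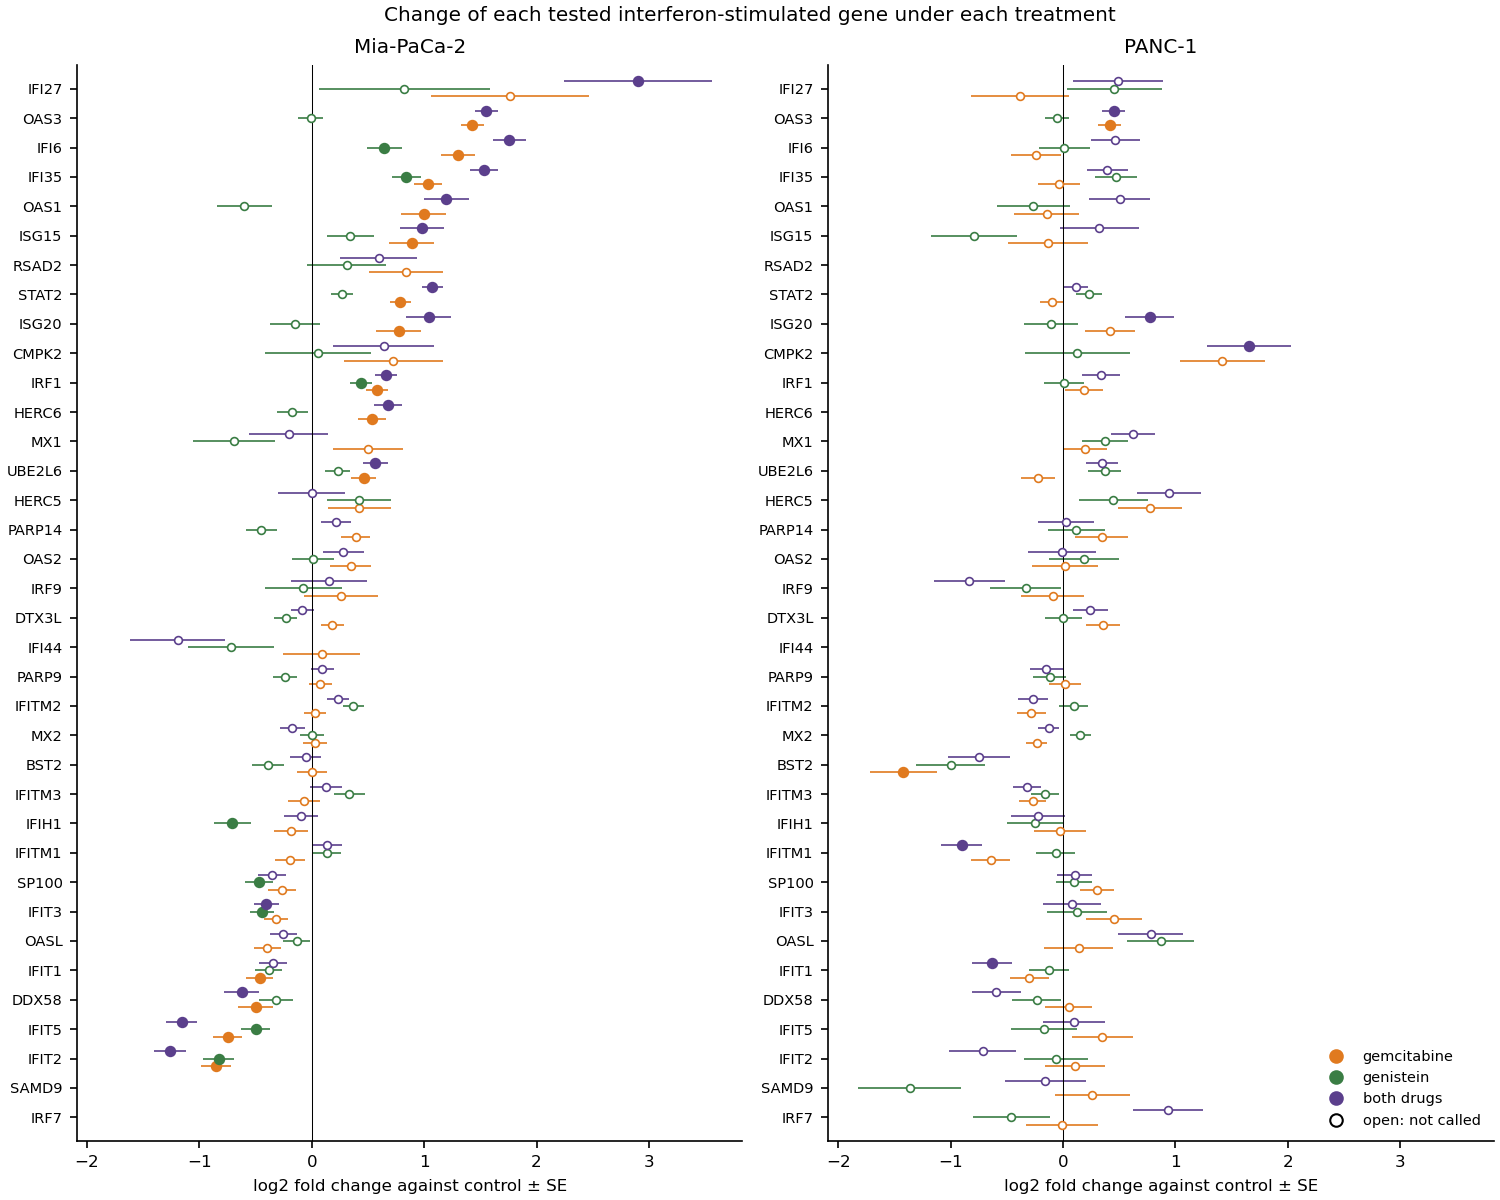
Log2 fold change against control (± SE of the limma-voom fit) of each interferon-stimulated gene tested in Mia-PaCa-2 (left) and PANC-1 (right) after gemcitabine, genistein or both drugs; filled points were called and genes without points were not tested in that line. Filled points number 14, 8 and 15 on the left and 2, 0 and 5 on the right.

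In PANC-1 few genes were called after gemcitabine, both among the interferon-stimulated genes and among all genes. After gemcitabine 1 of the 33 genes tested rose, beside 4.49% of all genes, and 1 fell, beside 3.03%. The median log2 fold change was 0.02 over the interferon-stimulated genes and 0.03 over all genes. OAS3 rose by 0.42 ± 0.10 (limma-voom adjusted p = 0.044), but its FPKM values of 26.8 and 16.4 in controls and 35.2 and 24.8 after gemcitabine overlapped. BST2 had 63 and 68 counts in controls and 15 and 21 after gemcitabine (log2 fold change -1.42 ± 0.30, adjusted p = 0.029). IFI6 was listed at 17.6 and 15.2 FPKM in controls and 15.4 and 14.2 FPKM after gemcitabine (-0.24 ± 0.22), and IFI35 (-0.04 ± 0.19), STAT2 (-0.10 ± 0.11) and OAS1 (-0.14 ± 0.29) lay near 0. ISG15 was at -0.13 ± 0.35, and its controls alone spanned 34.5 to 54.2 FPKM. CMPK2, a mitochondrial nucleotide kinase, had 14 and 18 counts in controls and 28 and 37 after gemcitabine (1.42 ± 0.38, adjusted p = 0.057). Of 9 epithelial, ductal and mesenchymal markers, CDH1 (-1.57 ± 0.18), KRT19 (-0.83 ± 0.17) and VIM (-0.60 ± 0.06) were lower.

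These PANC-1 counts changed when a single library was left out, also when it was a genistein library, which is not part of this comparison. No gene was called without genistein I, genistein II, gemcitabine I or gemcitabine II, 1 was called without control I and 3 without control II. With the replicate number as a block none was called, and by edgeR 1 was. After removal of the GC trend OAS3 (0.36) was lost and 4 were called, with BST2 (-1.37), IFITM1 (-0.58) and IFIT1 (-0.48) lower and CMPK2 (1.37) higher, and scaled by library size alone 2 were higher and 1 lower.

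Genistein alone gave 0 calls among the 33 genes in PANC-1 by limma-voom, edgeR or DESeq2, beside 0.0591% of all genes in either direction. The smallest adjusted p by DESeq2 was 0.042, but that gene did not meet the other thresholds for a call. At an unadjusted p under 0.05 there were 5 genes by limma-voom, 6 by edgeR and 3 by DESeq2. ISG15 was listed at 54.2 and 34.5 FPKM in controls and 25.5 and 24.0 FPKM after genistein (-0.79 ± 0.38). IFI35 was at 0.47 ± 0.19 and UBE2L6 at 0.37 ± 0.15, and both were called after removal of the GC trend (0.57 and 0.45).

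Both drugs together raised 3 genes in PANC-1 and lowered 2, beside 10.2% and 6.90% of all genes. CMPK2 rose from 14 and 18 counts to 31 and 34 (log2 fold change 1.65 ± 0.38, limma-voom adjusted p = 0.020). ISG20 rose from 8.73 and 7.99 FPKM to 18.3 and 17.1 FPKM (0.77 ± 0.22), and OAS3 changed by 0.45 ± 0.10. IFITM1 fell from 84.1 and 63.5 FPKM to 43.8 and 59.6 FPKM (-0.90 ± 0.18), and IFIT1 from 6.68 and 8.05 FPKM to 5.45 and 5.18 FPKM (-0.63 ± 0.18). Of these 5 calls, 1 was left without control II (IFITM1), 2 without either genistein or either both-drug library, 3 without either gemcitabine library and 4 without control I. With the replicate number as a block 3 were left. Of the 9 epithelial, ductal and mesenchymal markers, 5 were lower. After removal of the GC trend OAS3 (0.32) was lost and 10 were called, 5 higher and 5 lower, and scaled by library size alone 7 were higher and 1 lower.

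Against the single drugs, PANC-1 cells given both drugs had few calls. Compared with gemcitabine, 0 of the 33 genes were called by limma-voom, edgeR or DESeq2, beside 0.0177% of all genes, with 5, 6 and 6 at an unadjusted p under 0.05, and IRF7 was at 0.94 ± 0.32. With the GC trend removed 4 were called, IRF7, IFI6 and UBE2L6 higher and DDX58 lower. Compared with genistein, 2 were higher, beside 3.87% of all genes, and 1 lower, beside 4.31%. These were IRF7, with 171 and 177 counts under genistein and 396 and 862 under both (log2 difference 1.39 ± 0.34), OAS3 (0.51 ± 0.11) and IFITM1 (-0.84 ± 0.19). None was called without genistein I, genistein II, gemcitabine I, gemcitabine II or both-drug library II, nor with the replicate number as a block, and 8 were called after removal of the GC trend. Scaled by library size alone, 4 were higher and none lower. The interaction test called 0 of 33 genes by limma-voom, edgeR or DESeq2 and 0% of all genes, with 3, 3 and 4 at an unadjusted p under 0.05.

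The gemcitabine response differed between the lines for 8 of 36 genes in a test of the difference itself on all 16 libraries. In 7 of them the log2 fold change was lower in PANC-1, beside 9.06% of all genes, and in 1 it was higher, beside 6.21%. IFI6 differed most, with a log2 fold change of 1.30 in Mia-PaCa-2 and -0.24 in PANC-1 (difference -1.63 ± 0.30, limma-voom adjusted p = 0.0041). BST2 fell in PANC-1 and not in Mia-PaCa-2, where it was listed at 30.3 and 25.8 FPKM in controls and 31.8 and 37.1 FPKM after gemcitabine (difference -1.50 ± 0.35). OAS1 (-1.24 ± 0.36), IFI35 (-1.17 ± 0.26), OAS3 (-1.11 ± 0.16), STAT2 (-0.98 ± 0.14) and UBE2L6 (-0.78 ± 0.19) rose in Mia-PaCa-2, and of these only OAS3 rose in PANC-1. IFIT5 differed in the other direction (0.99 ± 0.29). In FPKM it fell from 9.81 and 9.91 to 6.93 and 6.03 in Mia-PaCa-2 and was listed at 4.17 and 6.34 in PANC-1 controls and at 7.76 and 7.85 after gemcitabine.

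After removal of the GC trend all 8 genes again passed, at -1.25 for IFI6, -1.10 for BST2, -1.42 for OAS1, -0.77 for IFI35, -0.98 for OAS3, -0.79 for STAT2, -0.39 for UBE2L6 and 0.54 for IFIT5, and the count was 10, with 3 higher and 7 lower. IFI6, OAS3 and STAT2 passed in each of the 16 fits that left out a library. The count itself moved with single libraries, to 15 without PANC-1 control II, to 3 without PANC-1 gemcitabine II and to 5 without either Mia-PaCa-2 control, without PANC-1 control I or without PANC-1 gemcitabine I. The genistein response differed between the lines for 0 of 36 genes by limma-voom, edgeR or DESeq2 and for 0.0336% of all genes, with 8, 9 and 7 at an unadjusted p under 0.05.

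The other genes of the pathway were followed from separate lists. The ligands themselves were hardly detected. IFNA1, IFNA2, IFNG and IFNK had 0 counts in all 16 libraries, IFNB1 had at most 1 count in a library, and the interferon lambda genes IFNL1, IFNL2 and IFNL3 had at most 6. A count of 0 allows up to 3 counts per library. The receptor chains were present, with IFNAR1, the first chain of the type I receptor, at 14.8 to 24.2 FPKM in Mia-PaCa-2 and 9.72 to 16.1 FPKM in PANC-1, and IFNAR2 at 13.4 to 17.6 and 15.7 to 21.0 FPKM. IFNLR1, the specific chain of the type III receptor, was low, at 0.281 to 1.18 and 0.813 to 2.60 FPKM. After gemcitabine IL10RB, the shared chain, rose in Mia-PaCa-2 (log2 fold change 0.51 ± 0.11) and IFNLR1 in PANC-1 (1.40 ± 0.21).

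After gemcitabine 5 of the 10 signal transducers tested were called in Mia-PaCa-2, 4 higher and 1 lower, beside 15.0% and 14.6% of all genes. USP18, the protease that removes ISG15 and damps the receptor, rose by 1.16 ± 0.19, and SOCS1 (1.09 ± 0.40) and SOCS3 (0.97 ± 0.16), inhibitors of JAK kinases, rose with TYK2 (0.55 ± 0.12), while the phosphatase PTPN2 fell by 0.67 ± 0.13 on the log2 scale. SOCS1 was sparsely counted, with 9 to 50 counts over the Mia-PaCa-2 libraries. With both drugs USP18 was at 1.50 ± 0.18. In PANC-1, where 4.49% of all genes were called higher and 3.03% lower, only STAT3 was called after gemcitabine (-0.46 ± 0.08). Among sensors and adaptors, 3 of 14 were higher and 1 lower in Mia-PaCa-2 after gemcitabine, beside the same 15.0% and 14.6% of all genes. TICAM1, the adaptor of TLR3 (1.01 ± 0.18), the DNase TREX1 (0.81 ± 0.14) and the DNA sensor cGAS, listed as MB21D1 (0.62 ± 0.11), rose, and the kinase TBK1 fell by 0.79 ± 0.19 on the log2 scale. TMEM173, the adaptor STING, fell in PANC-1 (-0.70 ± 0.16), the only call among 13 genes there.

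A further 37 interferon-stimulated genes outside the main list gave 9 higher and 2 lower of 32 tested in Mia-PaCa-2 after gemcitabine, with a median log2 fold change of 0.24. Of all genes, 15.0% were called higher and 14.6% lower. PARP10 rose by 1.21 ± 0.19 and the apolipoprotein APOL1 by 1.06 ± 0.12, whereas the antiviral protein ZC3HAV1 (-0.43 ± 0.09) and the nucleotidase NT5C3A (-0.59 ± 0.15) fell. After genistein 0 were higher and 2 lower, beside 4.18% and 4.13% of all genes. With both drugs 12 were higher and 3 lower, beside 20.3% and 20.2% of all genes. In PANC-1, 1 of 31 was higher after gemcitabine, LAMP3 (0.94 ± 0.22), and none was lower, beside 4.49% and 3.03% of all genes. Of the further genes, 10 of 33 tested had a lower gemcitabine response in PANC-1 than in Mia-PaCa-2, beside 9.06% of all genes.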

How the data were processed

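The authors made stranded poly-A libraries, mapped single reads to GRCh37 with TopHat2 2.0.4, removed reads with several alignments with Picard 1.29 and, per the labels, deposited counts of reads per gene from HTSeq 0.6.1, which are whole numbers without normalization. They also deposited FPKM per gene from Cufflinks 2.1.1, which are normalized for library size and the length of the transcript. Neither the annotation release nor the strand setting of HTSeq is given in the sources used here. FPKM per isoform was not used here.

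The members and all gene lists were chosen with earlier results of these data known. Counts were normalized by TMM (edgeR 4.0.16) after filterByExpr and tested with limma-voom (R 4.3.3, limma 3.58.1), over all 16064 genes kept in Mia-PaCa-2, 16909 in PANC-1 and 17863 in a model of all 16 libraries, with Benjamini-Hochberg adjustment over all of them. The 8 libraries of a line shared one model. Calls needed an adjusted p no higher than 0.05, a log2 fold change of 0.4 or more in size, and more than 1 FPKM on average in treated cells (in either line for the untreated comparison). Interactions and differences between lines were called by adjusted p alone. The interferon-stimulated genes too low to test were IRF7, IFI44L and SAMD9 in Mia-PaCa-2, IFI44, IFI44L, HERC6 and RSAD2 in PANC-1, and IFI44L in the model of all libraries. Every member could be named; for each comparison the called members were described first.

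Alternatives were edgeR's quasi-likelihood test, DESeq2 1.42.0, DESeq2 size factors, library size alone, no low-count filter, limma-trend on log2(FPKM + 1), adjusted p alone, the replicate number as a block, removal of each library's GC trend (loess, span 0.3, degree 1), the last 2 together, and each library left out. GC content and gene positions came from a GENCODE annotation lifted to GRCh37, and promoters from RefSeq on GRCh38.p14; positions on the 2 builds were not combined. Some genes of the wider lists are not reported here by name.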

Additional observations from a re-analysis of the deposited data

Results flagged for a closer look

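For 8 interferon-stimulated genes the log2 fold change after gemcitabine differed between the lines in a test of the difference itself (limma-voom, all 16 libraries, adjusted p at most 0.05). PANC-1 minus Mia-PaCa-2, the differences were -1.63 for IFI6, -1.50 for BST2, -1.24 for OAS1, -1.17 for IFI35, -1.11 for OAS3, -0.98 for STAT2, -0.78 for UBE2L6 and 0.99 for IFIT5. With the replicate number as a block, OAS1 (adjusted p = 0.061) and IFIT5 (adjusted p = 0.081) no longer passed. IFIT5 passed in 6 and OAS1 in 8 of the 16 fits that left out a library.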

How the results depend on the processing

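Each group has 2 libraries, so 1 library weighs heavily, and genes with few reads, such as IFI27, CMPK2 and IRF9, are poorly determined. Of 93 called pairs of gene and comparison, 91 kept their call with edgeR, 90 with DESeq2, 90 with DESeq2 size factors, 84 with library size alone, 80 with the replicate block, 80 without the low-count filter, 76 after removal of the GC trend, 74 after removal with the block and 59 on FPKM; none reversed. Over all fits with a library left out, 854 of 992 were kept.

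Counts of genes called, with the main value first, moved by over 1.5 times as follows. In Mia-PaCa-2, genistein against control (8) gave 0 on FPKM, 5 after GC removal, 5 with the block added and 1 to 9 with a library left out. Both drugs against gemcitabine (2) gave 1 by edgeR, by library size, without the filter, with the replicate block, after GC removal and after GC removal with the block, 0 on FPKM and 0 to 5 with a library left out. Gemcitabine against control (14) gave 9 to 14 with a library left out. In PANC-1, gemcitabine against control (2) gave 1 by edgeR, with DESeq2 size factors and without the filter, 0 on FPKM and with the replicate block, 4 after GC removal with or without the block and 0 to 3 with a library left out. Genistein against control (0) gave 2, and both drugs against gemcitabine (0) gave 4, after GC removal with or without the block. Both drugs against control (5) gave 8 by DESeq2 and by library size, 2 on FPKM, 3 without the filter and with the replicate block, 10 after GC removal, 11 with the block added and 2 to 5 with a library left out. Both drugs against genistein (3) gave 5 by DESeq2, 0 without the filter and with the replicate block, 8 after GC removal with or without the block and 0 to 4 with a library left out. The gemcitabine difference between lines (8) gave 5 on FPKM and 3 to 15 with a library left out. With a library left out, the remaining ranges were 13 to 17 (both drugs against control, Mia-PaCa-2), 9 to 14 (both drugs against genistein, Mia-PaCa-2) and 21 to 24 (untreated lines). The causes were not tested.

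The replicate numbers link the groups by label alone. Deviations of same-numbered libraries correlated at -0.07 on average in Mia-PaCa-2 and -0.08 in PANC-1. Single pairs of groups took both signs, from -0.30 to 0.16 in Mia-PaCa-2 and from -0.57 to 0.33 in PANC-1. The labels give the block no basis in the design. Scaling by library size alone moved the median of all genes after gemcitabine from -0.01 to 0.09 in Mia-PaCa-2 and from 0.03 to 0.14 in PANC-1, and the share of higher among all called genes from 50.6% to 66.5% and from 59.7% to 78.6%, while the median of the interferon-stimulated genes relative to all genes stayed at 0.31 to 0.32 and at -0.01.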
